A study of Homo sapiens with 2 samples.

Results

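MYC, MAF and MEF2C are transcription factor genes and CCND2 encodes cyclin D2, a MAF target. These 4 genes were chosen by symbol from a deposited list of RNA peaks, and together they held 6 of its 236 distinct peaks, with 3 peaks in MEF2C and 1 in each of the others. The genes were picked with their values known, so the values below are a description of these peaks. The peaks come from RNA immunoprecipitation sequencing in the human cell line ARP1, established from multiple myeloma and grown untreated in serum-containing medium. RNA bound by SFRS8 (SFSWAP, a regulator of pre-mRNA splicing) was recovered with an antibody to give the IP library, and input RNA without antibody gave the control, with 1 library each. The shared protocol text also mentions an antibody against N6-methyladenosine, and whether that step was used for these libraries is not clear. With a single library on each side there is no replicate error, and no test between IP and input was possible.

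MYC is a transcription factor that pairs with MAX and drives genes of growth and ribosome production, and its activity commonly rises as myeloma progresses. MAF is a basic leucine zipper factor that is overexpressed in myelomas whose translocation joins it to the immunoglobulin heavy chain locus. MAF raises transcription of CCND2, whose product activates the kinases CDK4 and CDK6 at entry into the cell cycle, and of ITGB7, an adhesion integrin. MEF2C is a MADS-box factor of muscle, neurons and B cells, whose partners include class II histone deacetylases.

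The unit of the results is the ratio, IP reads divided by control reads within a peak. The list carried no library totals, so a ratio below 1 does not mean depletion and a ratio has meaning only beside other peaks. The header of the list does not name its libraries. The unprefixed count was read as IP and the count prefixed CTL as input, and an exchange would turn every order. Bearing on this reading, no peak had fewer than 11 unprefixed reads while 12 peaks had 0 reads under CTL. Of those 12, all but the peaks of LRRC59 and a lincRNA lay on chromosome 21. The score in the authors' deposited table was above 0 for all 236 peaks. On the other side, that deposited score fell as the ratio rose, as given with the scores below, so the reading is not settled. Intervals are exact Clopper-Pearson 95% intervals and cover counting error only, since there was 1 library on each side. Reads copied by PCR cannot be told from separate molecules, so the intervals may be too narrow even for that error. The intervals also take no account of how peaks entered the list, in which none had fewer than 11 IP reads. Over all 236 peaks the median was 21.5 IP reads, 145 control reads and a ratio of 0.190. Summed over the 221 peaks outside chromosome 21, the ratio was 0.105. The remaining 15 peaks, on chromosome 21, were listed with ribosomal RNA genes or with no known gene type.

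Across the 4 genes the ratio ran from 0.343 in MYC to 0.0108 in CCND2, a 31.7-fold range. With the libraries exchanged the same reads would give 2.92 for MYC, the lowest, and 92.5 for CCND2, the highest. As read here, MYC stood highest, MAF and the 2 narrow MEF2C peaks lay close to the median of all peaks, and the wide MEF2C peak and CCND2 lay far below it. The interval was wholly above the median of all peaks in 1 of the 6 peaks, against 36.4% of all peaks. It was wholly below in 2 of the 6, against 40.3% of all peaks, and it spanned the median in the other 3. With so few members these counts are near the background and show nothing particular to the 4 genes. The median ratio of the 6 peaks was 0.187, close to that of the whole list.

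**Figure D1:**
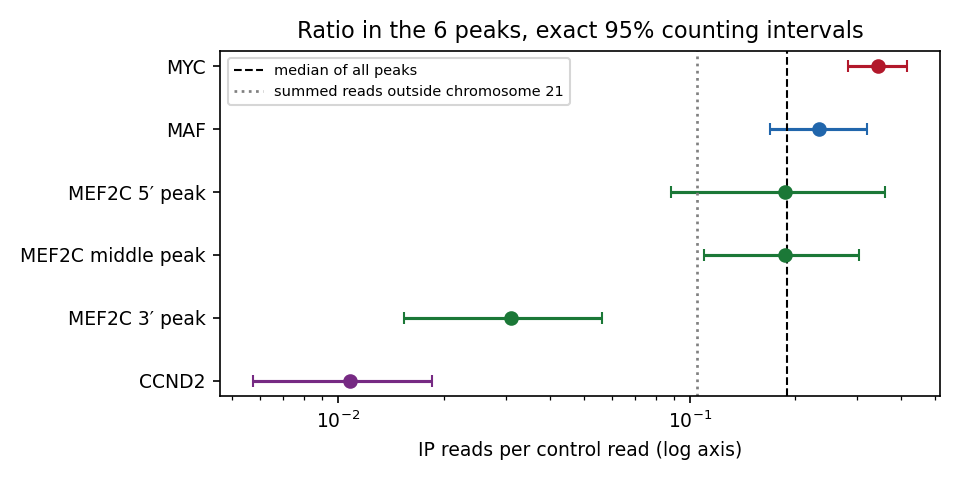
Ratio of IP to control reads in each of the 6 peaks, on a log axis, with exact 95% counting intervals as bars. The dashed line is the median of all 236 peaks (0.190) and the dotted line the summed ratio outside chromosome 21 (0.105); MYC lies wholly to the right of both, and the 3′ peak of MEF2C and CCND2 wholly to the left.

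The MYC peak held 144 IP reads and 420 control reads, a ratio of 0.343 (95% interval 0.282 to 0.415). It ranked 14th of 236 by IP reads and 64th by control reads, and 64.7% of the other peaks had a lower ratio. The peak lay on the plus strand of chromosome 8 from 127736281 to 127743630 of GRCh38 and was 7350 bases wide, against a median width of 2085. It began 847 bases after the listed start of MYC (ENSG00000136997), covered 85.9% of the gene's 6001 bases, and ran 2196 bases past the listed 3′ end. RefSeq places the end of MYC further downstream, at 127742951, and 679 bases of the peak lay beyond that end too. Such overhang was common, because 73 of the 209 peaks in protein-coding genes (34.9%) held the listed 3′ end. MYC took 1.59% of the IP reads and 0.489% of the control reads in peaks outside chromosome 21, which put its ratio at 3.26 times the summed ratio of those peaks.

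MAF followed, with 51 IP reads and 218 control reads, a ratio of 0.234 (0.169 to 0.319). That ratio was 1.23 times the median of all peaks, an excess smaller than its counting error. The peak lay on the minus strand of chromosome 16 from 79597301 to 79600740 and was 3440 bases wide. It differed from the other 5 peaks in its place, since it held the 5′ end of its gene. Of the 209 peaks in protein-coding genes, 4 (1.91%) held the listed start of the gene, and MAF was among them. The peak reached 26 bases before the listed start of MAF (ENSG00000178573), ended 11458 bases short of its listed 3′ end and covered 23.0% of its 14872 bases. RefSeq gives the same gene a far longer span of 398116 bases, with a start at 79600737, 3 bases inside the edge of the peak.

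The sequence just upstream of MAF is shown because this was the member peak whose edge met a gene start. It is the 250 bases before the RefSeq start, at chr16:79600738-79600987, minus strand, from RefSeq on GRCh38.p14, with capitals marking the TATA box letters TATAAA. Its last 3 bases lie in the peak.
MAF: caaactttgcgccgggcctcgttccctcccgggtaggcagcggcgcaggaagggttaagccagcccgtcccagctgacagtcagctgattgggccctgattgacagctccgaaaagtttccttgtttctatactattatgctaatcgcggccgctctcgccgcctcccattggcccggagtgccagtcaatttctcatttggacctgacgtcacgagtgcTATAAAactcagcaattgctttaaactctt
The motif TATAAA, searched on both strands, occurred 1 time, with its first base 30 bases before the start. The same letters occurred in 10.7% of 35116 RefSeq windows of that length. GC content was 54.4%, against a median of 58% over those windows. The closeness of the peak's edge to the start is limited by how the list was made. In all 236 peaks both edges fell on multiples of a step of at least 100 bases, and for the MAF peak on multiples of 860. Its edge is thus a step of a grid rather than a mapped RNA end. The step itself may be smaller than 860, since a KARS peak on the same chromosome was 215 bases wide.

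**Figure D2:**
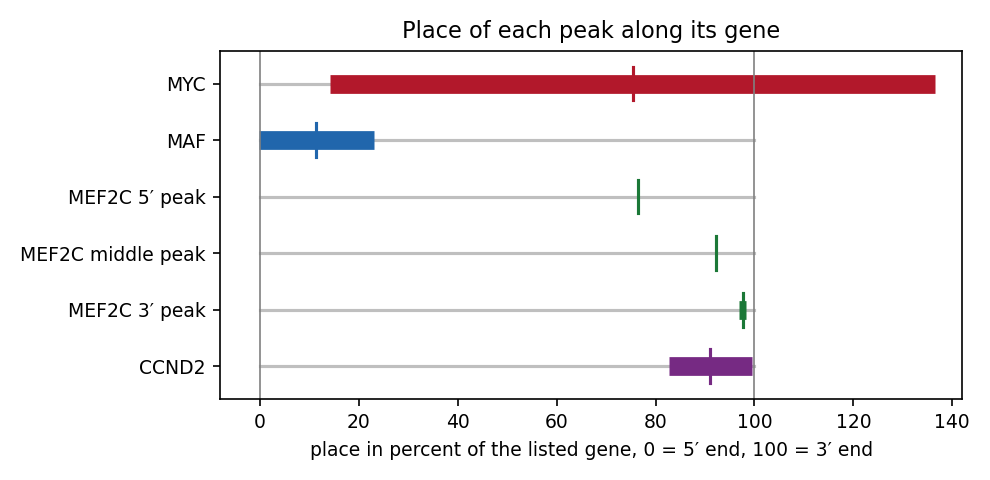
Place of each peak along its listed gene, in percent of gene length from the 5′ end (0) to the 3′ end (100); thick bars are peaks and thin ticks their centres. MAF covers the 5′ end, MYC runs from 14.1% to past the 3′ end, and the CCND2 and MEF2C peaks lie in the 3′ part of their genes.

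MEF2C (ENSG00000081189) had 3 peaks on the minus strand of chromosome 5, and they did not share a ratio. The peak nearest the 5′ end lay from 88761151 to 88761375 and held 11 IP reads and 59 control reads, a ratio of 0.186 (0.0883 to 0.358). The middle peak lay from 88731676 to 88731900 and held 20 IP reads and 107 control reads, a ratio of 0.187 (0.110 to 0.303). The peak nearest the 3′ end lay from 88720201 to 88722900 and held 11 IP reads and 353 control reads, a ratio of 0.0312 (0.0154 to 0.0564). The first and the middle peak were thus alike in ratio and in their width of 225 bases, while the 3′ peak was 2700 bases wide and much lower.

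The odds of an IP read in the middle peak were 5.97 times those in the 3′ peak (exact conditional 95% interval 2.63 to 14.3). Between the 5′ and the 3′ peak the odds ratio was 5.95 (2.23 to 15.9). The middle and the 5′ peak could not be separated, at 1.003 (0.424 to 2.48). Library depth cancels in these comparisons because the peaks come from the same pair of libraries, which are all that is compared. The 5′ and the 3′ peak had the same 11 IP reads, so their difference in ratio rested wholly on the control reads. No listed peak had fewer than 11 IP reads, and 28 peaks had exactly that number. The ratios of these 2 peaks were therefore the lowest that a listed peak with 59 or 353 control reads could have.

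Read density shows the same contrast per length. The IP library had 48.9 reads per kilobase in the 5′ peak, 88.9 in the middle peak and 4.07 in the 3′ peak. The control library had 262, 476 and 131 reads per kilobase in the same order. From the 3′ to the middle peak the control density thus rose 3.64-fold and the IP density 21.8-fold. The middle peak ranked 10th of 236 by IP density and 32nd by control density, so it was dense in both libraries.

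**Figure D3:**
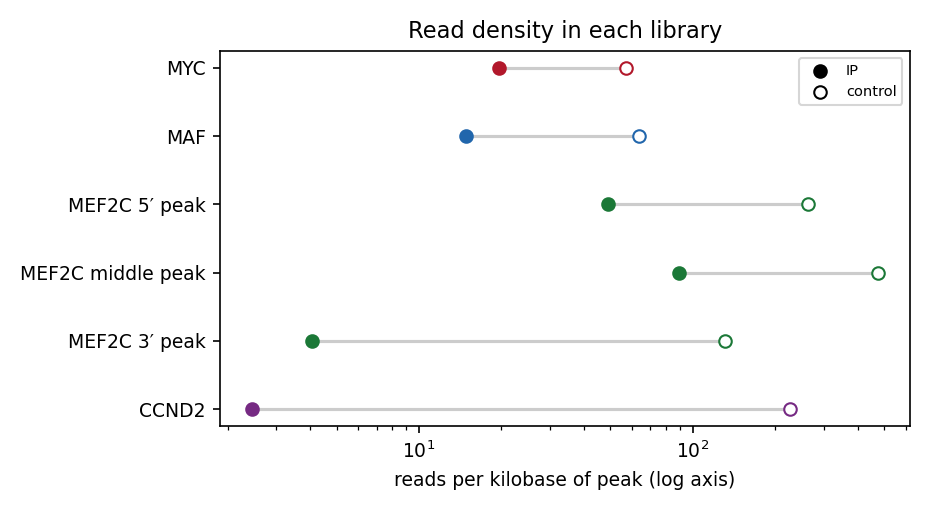
Reads per kilobase of peak in the IP library (filled) and the control library (open) for the 6 peaks, on a log axis. The narrow MEF2C peaks have the highest density in both libraries (48.9 and 88.9 IP, 262 and 476 control), and CCND2 has the lowest IP density (2.45) at a control density of 227.

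All 3 MEF2C peaks lay in the 3′ part of the gene, centred at 76.4%, 92.2% and 97.6% of its 187141 bases. Together they covered 3150 bases, or 1.68% of the gene, within a span of 41175 bases. Gaps of 29250 and 8775 bases separated them, going from 5′ to 3′. The RefSeq promoter windows used here gave 7 start sites for MEF2C. All 7 were upstream of all 3 peaks, the nearest by 24136 bases and the furthest by 142730. These windows may not hold every start site, since they held none for MYC or CCND2. Of the 3′ peak, 2631 of 2700 bases also lay within MEF2C-AS2, a long non-coding RNA gene, by position and without regard to strand, whereas neither narrow peak overlapped another RefSeq gene. The 3′ peak ended 3084 bases before the listed end of MEF2C. The positions of exons were not used here, so which of the peaks were exonic is not stated.

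The spread between MEF2C peaks was set beside that of the other genes with several peaks. Among 19 genes with a symbol and more than 1 peak, the highest ratio over the lowest had a median of 1.73 and ran from 1.16 in RSL1D1 to 5.998 in MEF2C. AFAP1L2 (5.82), EIF3C (5.44) and EEF1G (4.75) came close behind, so MEF2C headed a group of genes with wide spreads and did not stand alone. A highest-over-lowest quotient grows with the number of peaks, and 15 of the 19 genes had 2 peaks, whereas 3 of the 4 widest spreads were in genes with 3 peaks (MEF2C, EIF3C and EEF1G). IP reads in all were few for MEF2C (42), AFAP1L2 (27) and EIF3C (34), but not for EEF1G (177), and EIF3C shares near-identical sequence with EIF3CL. Width also moved with the MEF2C contrast. The 13 peaks of at most 300 bases had a median ratio of 0.186, and the 11 of them outside MEF2C had a median of 0.118, with a range over the 13 from 0.0194 to 8. The part of width in the MEF2C difference was not tested.

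**Figure D4:**
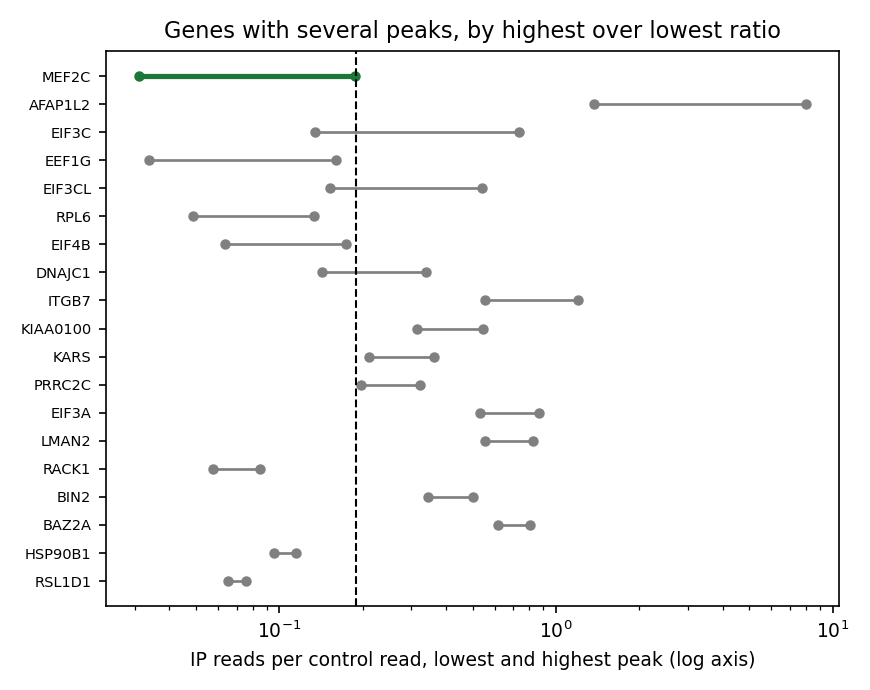
Lowest and highest ratio of IP to control reads for the 19 genes with a symbol and more than 1 peak, ordered by the quotient of both, on a log axis; the dashed line is the median of all peaks. MEF2C (green) spans 0.0312 to 0.187, a quotient of 5.998, next to AFAP1L2 at 5.82.

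CCND2 (ENSG00000118971) was at the other end of the order from MYC. Its peak held 13 IP reads and 1202 control reads, a ratio of 0.0108 (0.00574 to 0.0186). That was 17.5 times below the median of all peaks and 9.73 times below the summed ratio outside chromosome 21. Lower ratios were found in 3 of the 236 peaks, those of JCHAIN (0.00353), RPL12 (0.00856) and B2M (0.0108), with EVI2B (0.0109) next above. The intervals of CCND2, RPL12, B2M and EVI2B were far wider than the gaps between them, so their order is not settled. CCND2 ranked 21st by control reads and 181st by IP reads. It gave 1.40% of the control reads and 0.144% of the IP reads in peaks outside chromosome 21.

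The low ratio of CCND2 went with its many control reads. Over the 236 peaks the ratio fell with control reads (Spearman's rho -0.82), a description that is partly built in, since control reads are the denominator and no listed peak had fewer than 11 IP reads. With 1202 control reads a listed peak could not have had a ratio under 0.00915. Among the 25 peaks with at least 1000 control reads the median ratio was 0.0305, the range 0.00353 to 0.211, and 3 lay below CCND2. By its ratio CCND2 was therefore among the lower of the peaks with many control reads.

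The CCND2 peak lay on the plus strand of chromosome 12 from 4299891 to 4305190 and was 5300 bases wide. It covered 16.8% of the gene's 31579 bases and stopped 160 bases before the listed 3′ end, with its centre at 91.1% of the gene. The whole peak was also listed with ENSG00000285901, an unnamed protein-coding entry that runs from 4273762 to 4405490. The reads cannot be assigned to either entry alone.

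**Figure D5:**
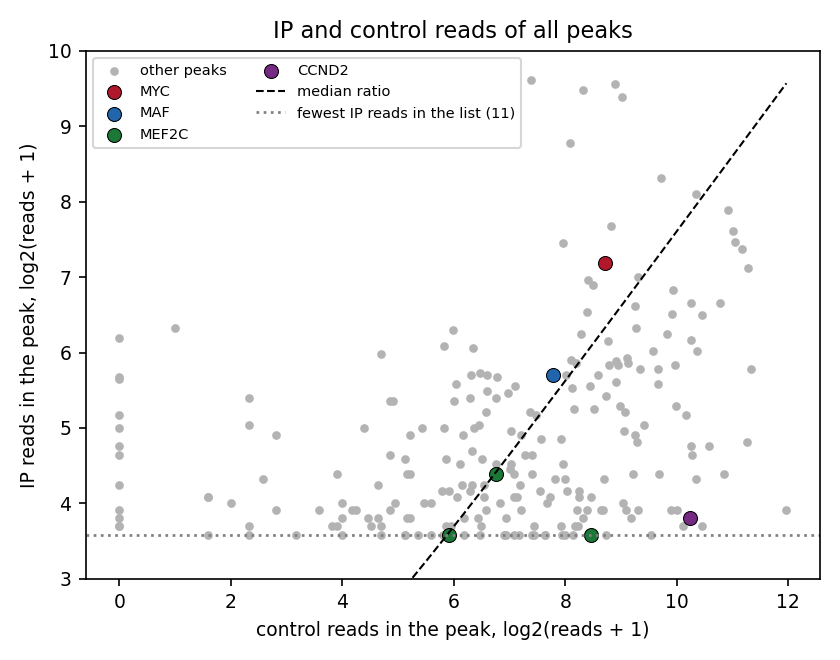
IP reads against control reads for all 236 peaks, both as log2(reads + 1), with the 6 member peaks in colour. The dashed line is the median ratio and the dotted line the fewest IP reads of any listed peak (11); MYC lies above the dashed line and CCND2 far to the right, just above the dotted line.

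Each pair of peaks was compared as the higher over the lower ratio. Of the 15 pairs among the 6 peaks, 11 had an odds ratio whose interval lay above 1, as had 75% of the 27730 pairs among all peaks, so the members were separated about as often as any peaks. MYC over MAF was 1.46 (1.01 to 2.14), which barely cleared 1. MAF was not separable from the middle MEF2C peak (1.25, 0.692 to 2.33) or from the 5′ one (1.25, 0.598 to 2.84), nor was MYC from the 5′ peak (1.84, 0.924 to 3.99). The 3′ peak of MEF2C exceeded CCND2 by 2.88 (1.16 to 7.03). These 2 peaks held 11 and 13 IP reads, at or near the fewest of any listed peak (11). Their order thus followed from the control reads (353 and 1202), and the interval takes no account of that lower limit. MYC over CCND2 was 31.6 (17.7 to 61.5), and MAF over its target CCND2 was 21.6 (11.3 to 44.0). These intervals were not adjusted for the number of pairs.

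Some other genes of these pathways had a peak, and the list does not tell whether genes lacking one were expressed. The whole list held 238 Ensembl genes, and the gene lists below were chosen with earlier results known. The share of all expressed genes with a peak is unknown, so the counts below describe neither an enrichment nor a lack. MYC was the single gene with a peak on a list of 20 MYC network genes, and its partner MAX was not among the listed peaks. Of 20 MYC targets, 4 had a peak, with ratios on both sides of the median. MYBBP1A, a nucleolar MYB-binding protein gene, had 11 IP and 2 control reads (5.5, 1.20 to 51.1). RPL3, a large-subunit ribosomal protein gene, had 318 and 836 (0.380, 0.333 to 0.433). PTMA, the prothymosin alpha gene, had 100 and 1214 (0.0824, 0.0665 to 0.101), and CCND2 was lowest.

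MAF was likewise the single gene with a peak among 11 genes of the MAF family and its partners. Of 11 symbols for MAF targets in myeloma, ITGB7 and CCND2 had peaks, the former above and the latter below the median of all peaks. The 3 ITGB7 peaks had 67 IP and 56 control reads (1.20, 0.826 to 1.74), 174 and 249 (0.699, 0.572 to 0.852), and 20 and 36 (0.556, 0.305 to 0.986). The highest of them was exceeded by 37 peaks of the list. MEF2C was alone among 14 genes of the MEF2 family and partners, and CCND2 alone among 14 genes of cyclin D and G1 control, so neither CCND1 nor CCND3 had a listed peak. Of 9 myeloma translocation partners, MYC and MAF had a peak.

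Of 10 other plasma cell transcription factors, 2 had a peak, both with a ratio below that of the median peak. IKZF3, the Aiolos gene and a target of lenalidomide treatment, had 11 IP and 134 control reads (0.0821, 0.0400 to 0.152). XBP1, which drives the secretory programme of plasma cells, had 100 and 1760 (0.0568, 0.0460 to 0.0695). Of 10 plasma cell markers, 4 had a peak (ITGB7, MZB1, XBP1 and JCHAIN), and none of 5 B cell, 6 T cell, 6 myeloid, 4 erythroid and 5 stroma markers had one. Since a missing peak does not show missing expression, these counts do not check the labelled cell type.

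The genes most like each member were sought by distance in log2(reads + 1) over the 2 libraries. MYC was nearest to H1F0, a linker histone gene (118 IP and 362 control reads), then to P4HB, a disulfide isomerase gene (124 and 337), and MKI67, the Ki-67 gene (204 and 450). MAF was nearest to ARF1, a small GTPase gene of the Golgi, with the same 51 IP reads and 256 control reads, then to TPI1 (45 and 277) and PHB2 (59 and 275). MEF2C was nearest to SPN, the CD43 gene (20 and 104), EIF3C (11 and 55) and ANXA11 (12 and 61), all through its narrow peaks. CCND2 was nearest to EVI2B (12 and 1101), RPL12 (12 and 1402) and TMSB4X, a thymosin gene (19 and 1296). These neighbours were the nearest by read numbers alone, and their functions were not compared. The match was loose for some, such as MKI67 with 204 IP reads against 144 for MYC.

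The pathway column of the authors' deposited table gave the 4 genes 1 shared entry, "Transcriptional misregulation in cancers". It was given to 7 of the 112 symbols that carried a pathway, the others being ITGB7, HIST2H3A (51 IP and 96 control reads, 0.531) and HIST2H3D (57 and 292, 0.195). MYC and CCND2 also shared the cell cycle entry, with CDC25B as the remaining gene of its 3 in the list. Both genes shared the Hippo, Jak-STAT, Wnt and PI3K-Akt signaling entries too. Further shared entries were cellular senescence, HTLV-I infection, microRNAs in cancer and pathways in cancer. MEF2C and MYC shared the MAPK signaling entry.

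The scores of the authors' deposited table ordered the 6 peaks differently from the ratio. The middle MEF2C peak had a log-odds score of 547 in the authors' deposited table, 8th of 236, and the 5′ peak had 262. CCND2 had 197 and the 3′ MEF2C peak 110 in the authors' deposited table, both above MYC at 77.0 and MAF at 54.1. The deposited score for the control was negative at each of the 6 peaks, from -436 at the middle MEF2C peak to -33.9 at MAF. Over all peaks the score in the authors' deposited table fell with the ratio (Spearman's rho -0.49, a description over 236 peaks that share both libraries). The lowest ratio of the 4 genes thus came with a higher deposited score than the highest ratio did.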

How the data were processed

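The data were a single deposited list of 279 rows on GRCh38 for 1 IP and 1 input library. The submitters' processing notes name HOMER and FastQC 0.11.5. The aligner, the peak caller and the version of HOMER are not given in the sources used here. Per the file headers, the deposited counts are whole reads per peak, without normalization. The deposited signal per kilobase equals the count divided by peak width. The deposited log-odds scores and p-values are the authors' own, and were used to rank, filter and describe peaks within the list.

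Rows were reduced to 236 distinct peaks by chromosome, start, end and strand. Ratios and intervals were computed with Python 3.11.15, pandas 2.3.3, numpy 2.4.6 and scipy 1.17.1, and figures with matplotlib 3.10.9. Code was tested on simulated data. For the 12 peaks with 0 control reads, none of them a member, the ratio used a floor of 3 control reads. Members and gene lists were chosen with earlier results of these data known. Named genes are the members, the 3 genes nearest to each by reads, and the members of the lists with a peak; other genes were named after their values were seen. Alternatives were a pseudocount, other floors, other sets of ranked peaks, other reference ratios, 99% intervals and the deposited scores. RefSeq (GRCh38.p14) gave gene spans and the promoter window.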

Additional observations from a re-analysis of the deposited data

How the results depend on the processing

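The 6 ratios stayed within their 95% intervals with a pseudocount of 1. A floor of 1 control read could not change them, because none of the 6 peaks had 0 control reads. Nor could the per-kilobase columns, because peak width cancels in the ratio. As the percent of other peaks with a lower ratio, MYC stood at 64.7, MAF at 57.4, the 5′, middle and 3′ peaks of MEF2C at 49.4, 49.8 and 8.94, and CCND2 at 1.28. Ranked by the deposited score these became 49.4, 38.7, 87.2, 97.0, 64.7 and 81.3. Ranked by the deposited p-value they moved to 45.1 for MAF, 74.0 for the 5′ and the middle MEF2C peak, 63.0 for the 3′ peak and 71.9 for CCND2, where peaks with a p-value of 0 are tied. With peaks at a deposited adjusted p of at most 1e-10, MAF rose to 63.4. The cause of these shifts was not tested. Restriction to peaks with control reads, to protein-coding genes or to chromosomes other than 21 kept each place within its counting interval. The count of peaks wholly above the median rose from 1 to 2 against the median of protein-coding peaks (0.165), and to 3 against the summed ratio outside chromosome 21, since both references are lower. The count wholly below stayed at 2. With its reads summed, MEF2C had a ratio of 0.0809 (42 IP to 519 control reads) in place of 0.187 for its highest peak, because the 3′ peak gave 68.0% of the control reads. By its 5′ edge the MYC peak lay at 14.1% of the gene, and by its centre at 75.4%. The depth of the libraries is unknown, and the 11 to 20 IP reads of the MEF2C and CCND2 peaks leave wide intervals. No paired analysis was possible because each group had 1 library and no test was made.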
